A study of Saccharomyces cerevisiae with 24 samples.

Results

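Laser-irradiated cells that had spent 15 min in fresh medium (laser T15) were set against unirradiated cells at the moment they entered that medium (control T0). The comparison takes 3 laser T15 and 3 control T0 libraries of the 24 in the series, over all 6427 genes of the tables, and pairs libraries with the same replicate number. Its question is which transcripts the irradiated cells held above the control start, and which only appear raised because control cells lowered them in the medium. The start state, or starting level, is that of control T0 throughout. A rise over it can already be present in laser T0, before the 15 min in medium. For that reason control cells at 15 min (control T15) and laser cells at entry into the medium (laser T0), 3 libraries each, are given beside it.

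The strain was BY4741, a haploid MATa derivative of S288C that carries *his3*, *leu2*, *met15* and *ura3* mutations, in every group. Cultures in rich glucose medium (YEPD) were collected in mid-log phase, put in cold buffer and divided. The laser portion was spread over small tubes in a chilled block, exposed to a UV laser for 30 s and pooled again. The control portion stayed on ice without light. Both were then diluted into warm YEPD and sampled at 0 and 15 min. Light, the chilled block and the handling of the tubes therefore cannot be told apart, and a difference between laser T15 and control T0 holds both the laser treatment and 15 min in medium.

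Yeast cells meet oxidants and damaged proteins with separate sets of genes. Yap1 is a transcription factor that activates peroxiredoxin, thioredoxin and oxidoreductase genes. Hsf1 activates chaperone genes, Rpn4 activates proteasome genes and Aft1 activates the genes of iron uptake. Msn2 and Msn4 activate a broad group of stress and reserve carbohydrate genes. That group and the respiratory genes are lowered when cells receive fresh glucose, while the genes of ribosomal proteins are raised.

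RPKM, the reads of a gene scaled to its length and to the mapped reads of the library, is the unit of all levels below. A gene without reads is listed at 0.021 RPKM. It is a share of a library, so a higher value cannot be told apart from less RNA of the other genes. Fold changes are differences of log2(RPKM + 1) with their standard error (SE), n = 3 libraries per group. A gene is called where its adjusted p is under 0.05 and its change is at least 2-fold, a log2 fold change of 1.

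The 6 libraries of laser T15 and control T0 held 2566500 to 4558500 reads each, and 436 to 509 genes per library had none. *STE2*, the α-factor receptor of MATa cells, had 298, 262 and 407 RPKM in laser T15 and 312, 294 and 336 RPKM in control T0 libraries. *MATALPHA1*, a regulator of the opposite mating type, and the deleted *LEU2* and *URA3* were at 0.021 RPKM in all 6. Other markers of that mating type had a few reads. *MATALPHA1*, *STE3* and *MF(ALPHA)1* together summed to between 2.52 and 5.87 RPKM per library. *MET17*, the current name of *MET15*, had reads in all 6 libraries although the strain's genotype lists it as deleted, as did *HIS3*. Distances between libraries (Bray-Curtis on square-root RPKM, where 0 means identical) averaged 0.101 between laser T15 and control T0, 0.118 between laser T15 and control T15, and 0.124 between control T15 and control T0. Within groups they averaged 0.0696 in laser T15, 0.0714 in control T15 and 0.0814 in control T0. Control T0 replicate 1 stood apart from its group, at 0.0861 and 0.114 from replicates 2 and 3, which were 0.0444 from each other. Laser T15 replicate 3 stood at 0.0805 and 0.0895 from replicates 1 and 2, which were 0.0386 from each other.

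Short stretches upstream of 10 genes are shown because they carry the recognition letters of the factors named above in genes that the results turn on. They come from the RefSeq R64 genome, run 5′ to 3′ in the direction of the gene, and are 100 bases each. Capitals mark the match on either strand. The letters searched were TTACTAA for Yap1, GCACCC for the core of the Aft1 site, GAA, TTC and GAA with 2 bases of any kind between each for Hsf1, GGTGGCAAA for Rpn4, AGGGG for Msn2 and Msn4, and CACGTG for Cbf1. Capitals that follow each other without a break in *BTN2* are 2 overlapping matches.
SRX1 (chrXI:277933-278032, plus strand): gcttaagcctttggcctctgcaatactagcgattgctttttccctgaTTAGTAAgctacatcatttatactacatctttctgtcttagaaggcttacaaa
TRX2 (chrVII:913374-913473, minus strand): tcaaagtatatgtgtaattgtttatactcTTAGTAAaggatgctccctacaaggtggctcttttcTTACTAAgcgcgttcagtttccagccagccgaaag
BTN2 (chrVII:772069-772168, plus strand): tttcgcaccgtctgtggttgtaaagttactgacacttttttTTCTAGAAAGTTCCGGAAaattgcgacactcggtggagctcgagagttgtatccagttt
SSA2 (chrXII:97663-97762, minus strand): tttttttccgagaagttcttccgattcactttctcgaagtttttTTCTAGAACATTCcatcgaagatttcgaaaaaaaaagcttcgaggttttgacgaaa
PRE8 (chrXIII:86840-86939, minus strand): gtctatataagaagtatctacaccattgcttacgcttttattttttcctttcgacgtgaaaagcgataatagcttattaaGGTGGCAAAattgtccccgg
FIT2 (chrXV:1059200-1059299, plus strand): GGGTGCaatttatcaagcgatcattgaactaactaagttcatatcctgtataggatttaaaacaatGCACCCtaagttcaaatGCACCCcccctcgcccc
LSO1 (chrX:448859-448958, minus strand): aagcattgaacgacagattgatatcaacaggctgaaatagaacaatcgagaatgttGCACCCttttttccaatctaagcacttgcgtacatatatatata
TMA10 (chrXII:783674-783773, minus strand): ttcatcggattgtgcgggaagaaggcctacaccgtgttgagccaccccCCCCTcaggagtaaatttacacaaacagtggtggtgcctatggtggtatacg
GSY1 (chrVI:176672-176771, minus strand): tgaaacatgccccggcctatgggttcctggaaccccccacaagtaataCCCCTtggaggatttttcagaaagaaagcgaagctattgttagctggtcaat
CTT1 (chrVII:654216-654315, plus strand): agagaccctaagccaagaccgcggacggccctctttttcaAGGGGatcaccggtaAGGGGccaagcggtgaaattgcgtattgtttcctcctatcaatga

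Laser T15 was called against control T0 in 464 genes (7.86%) and control T15 in 892 (15.2%), with a different split of directions. Of 5903 genes tested, 209 (3.54%) were called higher and 255 (4.32%) lower in laser T15 than in control T0. In control T15 against control T0, 135 of 5872 genes (2.3%) were called higher and 757 (12.9%) lower. In laser T15 against control T15, 748 of 5887 genes (12.7%) were called higher and 60 (1.02%) lower. These shares over all genes are the background for the counts of gene lists below. These 3 comparisons share libraries, so their values are set side by side and no overlap between them is tested. Each fit has its own error variance, so counts of calls are not on 1 scale between comparisons. All 3 laser T15 values lay above all 3 control T0 values for 192 of the 209 called higher, and below them for 215 of the 255 called lower. Over all genes tested, 13.9% lay wholly above and 13.1% wholly below. Without a filter on low values the first comparison gave 59 higher and 45 lower genes, with 6 of 35 chaperone and 9 of 33 proteasome genes higher, against 20 and 15 with the filter.

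The starting level sorts the genes that laser cells held above control cells at 15 min. Of 741 genes called higher in laser T15 than in control T15 and tested in all 3 fits, 140 (18.9%) were also called higher than control T0. Another 554 (74.8%) were not called against control T0, and for 351 of the 741 (47.4%) the 95% interval of that difference lay within 2-fold in either direction. The other 47 (6.34%) were called lower than control T0. Among 52 genes called lower in laser T15 than in control T15, 13 were also called lower than control T0, 38 were not called and 1, the leucine tRNA gene *SUP53*, was called higher, a call lost without replicate 2, without the pairing of cultures and after rescaling. Thus 140 of 5802 genes (2.41%) were above both control groups and 13 (0.224%) below both. A further 246 (4.24%) were near the start state, defined as a call in control T15 against control T0, a call in laser T15 against control T15, and an interval against control T0 within 2-fold. In 236 of these (4.07%) control cells had fallen and in 10 (0.172%) they had risen. Rescaling each library by its median ratio to the others shifted the other 2 comparisons more than this one. The median log2 fold change of all genes was -0.34 before and 0.01 after rescaling in control T15 against control T0, 0.29 before and -0.02 after in laser T15 against control T15, and -0.04 before and -0.01 after in laser T15 against control T0. After rescaling the counts were 213 higher and 220 lower against control T0, 394 higher and 306 lower against control T15, and 345 higher and 375 lower for control T15 against control T0, with 109 genes above both and 23 below both. The near-start genes then divided into 97 where control cells had fallen and 134 where they had risen, so the larger side changed. Without replicate 1, 2 or 3 the number where control cells had risen was 41, 1 and 2.

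**Figure D1:**
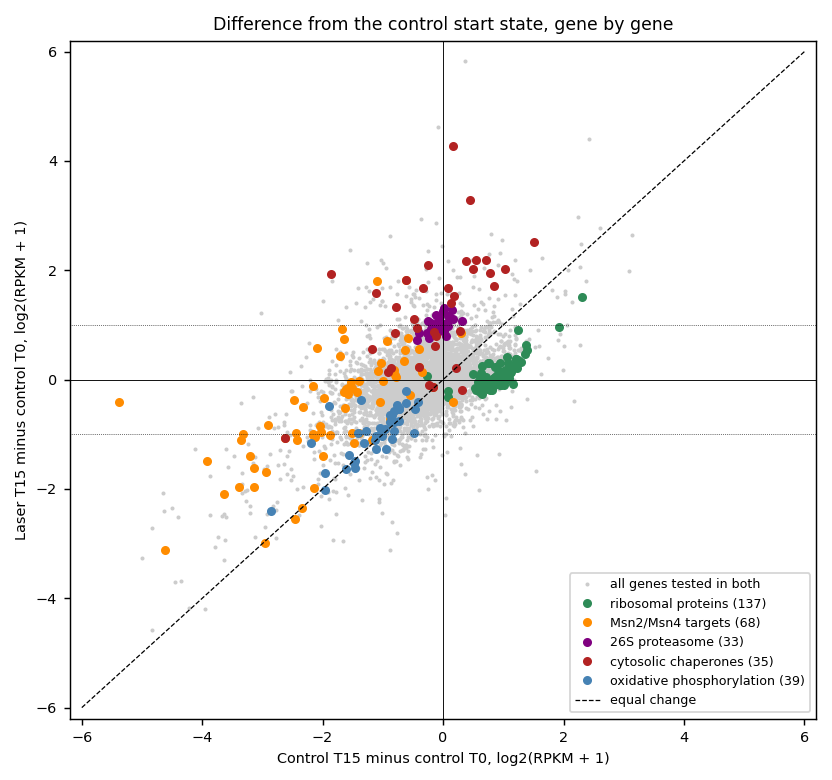
Log2 fold change over control T0 of each gene in laser T15 (vertical axis) against that in control T15 (horizontal axis), both from log2(RPKM + 1). Grey points are genes tested in both fits, coloured points are genes of 5 lists with the number drawn, the dashed line marks equal change and the dotted lines a 2-fold change of laser cells. Both axes contain the same control T0 libraries. Proteasome genes form a cluster near 1 on the vertical axis and 0 on the horizontal one, most chaperone genes lie above 0 on the vertical axis, ribosomal protein genes sit near 0 on the vertical axis to the right, and oxidative phosphorylation genes lie along the dashed line.

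Genes that reduce peroxides and oxidised thiols held some of the largest rises over the start state. Of 14 peroxiredoxin, thioredoxin and glutathione peroxidase genes, 8 were called higher than control T0 and none lower, with a median log2 fold change of 1.59, against -0.04 over all genes tested. *SRX1*, sulfiredoxin, which repairs over-oxidised peroxiredoxins, had 423, 632 and 519 RPKM in laser T15 libraries, against 10.5, 22.5 and 5.02 RPKM in control T15 and 11.1, 4.64 and 10.2 RPKM in control T0 libraries. Every laser T15 value was far above all 6 control values, and the log2 fold change over control T0 was 5.83 ± 0.24 (adjusted p = 3.8e-13). *TRX2*, a cytosolic thioredoxin, had 6751, 10520.0 and 4908 RPKM in laser T15 libraries, against 1591, 2984 and 1499 RPKM in control T15 and 1300.0, 1235 and 846 RPKM in control T0 libraries. The laser values again stood apart from both control groups, with a log2 fold change over control T0 of 2.67 ± 0.22 (adjusted p = 7.8e-09). *TSA2*, a peroxiredoxin, had 265, 269 and 195 RPKM in laser T15 libraries, against 38.0, 51.5 and 40.4 RPKM in control T15 and 46.7, 40.7 and 43.5 RPKM in control T0 libraries, and control cells hardly moved (log2 fold change -0.02 ± 0.24, adjusted p = 9.5e-01). The peroxiredoxins *TSA1* and *AHP1* and the thioredoxin reductase *TRR1* were higher by 2.05, 2.32 and 2.01 on the log2 scale. *GPX2*, a phospholipid hydroperoxide glutathione peroxidase, had 895, 951 and 826 RPKM in laser T15 libraries, against 242, 287 and 166 RPKM in control T15 and 71.6, 33.4 and 28.7 RPKM in control T0 libraries. It was the member that control cells raised too, by 2.43 against 4.41 in laser cells. *MXR1*, which reduces oxidised methionine, was higher by 2.16.

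Part of the oxidoreductase and detoxification genes linked to Yap1 rose over the start state too. Of 25 such genes 13 were called higher than control T0 and none lower (median 1.05), while 5 of them were called lower and none higher in control T15 against control T0. Over all genes tested 12.9% were called lower and 2.3% higher in control T15 against control T0. *OYE3*, an NADPH oxidoreductase, had 28.8, 31.9 and 25.9 RPKM in laser T15 libraries, against 2.24, 4.79 and 1.80 RPKM in control T15 and 2.26, 3.21 and 3.89 RPKM in control T0 libraries (log2 fold change over control T0 2.87 ± 0.30, adjusted p = 3.0e-07). The control groups overlapped each other and neither overlapped the laser group. *YKL071W*, an oxidoreductase-like gene, had 46.1, 66.4 and 77.3 RPKM in laser T15 libraries, against 5.54, 7.90 and 1.88 RPKM in control T15 and 11.6, 10.8 and 6.07 RPKM in control T0 libraries, a log2 fold change over control T0 of 2.63 ± 0.26. *HBN1*, a nitroreductase-like gene, moved in opposite directions in the 2 portions. Its levels were 67.8, 86.1 and 107 RPKM in laser T15 libraries, against 4.64, 1.65 and 5.38 RPKM in control T15 and 34.8, 38.8 and 35.3 RPKM in control T0 libraries, which gives 1.22 ± 0.19 for laser T15 and -3.03 ± 0.33 for control T15 over control T0. *YAP1* itself was higher by 1.18 (adjusted p = 1.2e-05), with 248, 263 and 325 RPKM in laser T15 and 103, 128 and 137 RPKM in control T0 libraries. *GRE2* and *YML131W*, on the same list, were instead near the start state. *GRE2* had 639.9, 763 and 872 RPKM in laser T15 libraries, against 107, 127 and 116 RPKM in control T15 and 531, 576 and 589 RPKM in control T0 libraries. The letters TTACTAA stood in the 400 bases from 500 to 101 before the start codon in 11 of the 25 oxidoreductase genes (44%) and 5 of the 14 peroxide genes (35.7%), against 9.03% of 5691 genes with such a window.

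Chaperone genes rose widely over the start state. Of 35 cytosolic and mitochondrial chaperone genes 20 were called higher than control T0 and 1 lower (median 1.41), and 19 were above both control groups. In control T15 against control T0 2 were called higher and 4 lower, where 2.3% and 12.9% of all genes tested were. *BTN2*, a protein-sorting factor that gathers misfolded proteins, had 164, 277 and 474 RPKM in laser T15 libraries, against 10.9, 15.6 and 19.7 RPKM in control T15 and 10.1, 17.1 and 13.7 RPKM in control T0 libraries. Its smallest laser value exceeded every control value many times over, and the log2 fold change over control T0 was 4.28 ± 0.21 (adjusted p = 2.9e-12). *HSP82*, an Hsp90 chaperone, had 998, 1127 and 1728 RPKM in laser T15 libraries, against 138, 157 and 242 RPKM in control T15 and 79.5, 152 and 170.2 RPKM in control T0 libraries (log2 fold change over control T0 3.29 ± 0.17, adjusted p = 1.1e-11). Its near-identical copy *HSC82* was higher by 1.96, but reads of the pair may be split between them by the mapping. The same limit holds for the Hsp70 genes *SSA1* and *SSA2*, which were higher by 2.19 and 2.52. *SSA2* had also risen in control T15, by 1.51. The Hsp90 co-chaperones *STI1*, *AHA1* and *CPR6* were higher by 2.17, 2.18 and 2.02.

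Among small heat shock proteins and disaggregases the direction differed from gene to gene. *HSP42*, a small heat shock protein that sequesters aggregates, had 573, 700.3 and 963 RPKM in laser T15 libraries, against 34.9, 53.1 and 76.2 RPKM in control T15 and 108, 241 and 267 RPKM in control T0 libraries. It was called higher than control T0 in laser T15 (1.93 ± 0.18, adjusted p = 5.1e-08) and lower in control T15 (-1.85 ± 0.21, adjusted p = 1.3e-16). The disaggregase *HSP104* had 592, 657 and 939 RPKM in laser T15 and 116, 243 and 293 RPKM in control T0 libraries, a log2 fold change of 1.81 ± 0.18, and its mitochondrial relative *HSP78* changed by 1.59. *HSP26*, the other major small heat shock protein, was the only chaperone gene of the list called lower than control T0, at 528, 525 and 550.4 RPKM in laser T15 libraries, against 149, 182 and 220.0 RPKM in control T15 and 781, 1295 and 1395 RPKM in control T0 libraries. Its log2 fold change was -1.07 ± 0.19, and it lost the call at -0.95 and -0.93 without replicate 2 or replicate 3. *HSP12*, a membrane-associated stress protein, had 5384, 7166 and 3933 RPKM in laser T15 and 6363, 5723 and 5575 RPKM in control T0 libraries, which overlap. The Hsf1 letters stood in the window of 13 of the 35 chaperone genes (37.1%), against 1.41% of all genes with a window.

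Proteasome genes moved as a block by close to 2-fold. All 33 genes of the 26S proteasome had a positive log2 fold change over control T0, between 0.72 and 1.31 (median 0.98), so the 2-fold limit divided them into 15 called higher and 18 not called. In control T15 the median was -0.10, and 0.27 after rescaling, with no call in either direction. The median level of the 33 genes was 564, 540.1 and 539 RPKM in laser T15 libraries, against 238, 269.5 and 276 RPKM in control T15 and 265, 278 and 280.4 RPKM in control T0 libraries. Laser cells stood well apart from both control groups, which overlapped. *PRE8*, a subunit of the catalytic core, had 666, 696 and 617 RPKM in laser T15 libraries, against 236, 293 and 272 RPKM in control T15 and 288.3, 256 and 249.6 RPKM in control T0 libraries (log2 fold change over control T0 1.31 ± 0.16, adjusted p = 3.3e-06). The core subunits *PRE3* and *PRE1* and the lid subunit *RPN12* were higher by 1.26, 1.18 and 1.27. *RPN4*, the activator of these genes, had 158, 176 and 287 RPKM in laser T15 libraries, against 75.5, 68.5 and 96.6 RPKM in control T15 and 90.7, 176 and 180.4 RPKM in control T0 libraries, and its difference from control T0 was not called (0.49 ± 0.18, adjusted p = 5.8e-02). Against control T15, 22 of the 33 genes were called higher (median 1.09), but after rescaling 1 was (median 0.77), while 19 were called against control T0 (median 1.02). The Rpn4 letters stood in the window of 21 of the 33 genes (63.6%), against 1.48% of all genes with a window.

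Part of the iron list rose over the start state, and 3 of its genes were called lower. Of 38 genes of the iron list, 11 were called higher and 3 lower than control T0 (median 0.69), where 3.54% and 4.32% of all genes tested were. *LSO1*, a small protein gene known to respond to low iron, had 79.4, 56.6 and 21.8 RPKM in laser T15 libraries, against 0.021, 0.021 and 0.021 RPKM in control T15 and 1.38, 1.05 and 0.021 RPKM in control T0 libraries. The laser T15 libraries held 181 of its reads and the control T0 libraries 2, a ratio of 71-fold per read sequenced (95% interval for counting error 19.4 to 590.5). Over control T15, where it had no reads, it was at least 57.1-fold higher with 3 reads over the group as the floor. *HMX1*, a heme oxygenase that releases iron from heme, had 241, 217 and 216 RPKM in laser T15 libraries, against 23.3, 19.8 and 22.2 RPKM in control T15 and 24.1, 26.8 and 35.4 RPKM in control T0 libraries. Laser values were alike and far above both control groups (log2 fold change over control T0 2.94 ± 0.18, adjusted p = 1.4e-10). *FIT2*, a cell wall mannoprotein that retains iron, had 488, 490.0 and 423 RPKM in laser T15 libraries, against 126, 140.1 and 214 RPKM in control T15 and 81.7, 79.8 and 73.7 RPKM in control T0 libraries and a log2 fold change of 2.56 ± 0.16. The siderophore transporters *ENB1* and *SIT1* were higher by 2.14 and 1.79, and *TIS11*, which destabilises messages of iron-using proteins, by 2.13. *FET3*, the high-affinity iron oxidase, was at the limit of a call, with 419.6, 399 and 566 RPKM in laser T15 and 246, 166 and 284 RPKM in control T0 libraries. Its log2 fold change was 1.0 ± 0.17, and 0.88 without replicate 2, where it was not called.

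*FRE1*, a metalloreductase of the cell surface, rose in both portions. It had 98.2, 92.3 and 118 RPKM in laser T15 libraries, against 58.7, 61.7 and 62.2 RPKM in control T15 and 16.2, 10.4 and 10.6 RPKM in control T0 libraries, a log2 fold change over control T0 of 2.97 in laser T15 and 2.23 in control T15. The difference between laser T15 and control T15 was not called (0.74 ± 0.10, adjusted p = 1.4e-03). In the other direction, *FET4*, a low-affinity iron transporter, had 23.7, 17.0 and 17.3 RPKM in laser T15 libraries, against 46.2, 41.7 and 39.4 RPKM in control T15 and 129.9, 164 and 166 RPKM in control T0 libraries. Laser values lay below both control groups, by -2.93 ± 0.20 against control T0 and -1.11 ± 0.12 against control T15. *CCC1*, which stores iron in the vacuole, fell by 1.25 on the log2 scale relative to control T0. The third gene of the list called lower was *ISU1*, an iron-sulfur cluster scaffold. The Aft1 core letters stood in the window of 26 of the 38 genes (68.4%), against 6.64% of all genes with a window.

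Genes of deoxynucleotide synthesis and DNA damage were raised in part, and part of the list was held at the start level. Of 47 genes 11 were called higher than control T0 and none lower (median 0.39), where 3.54% and 4.32% of all genes tested were. *HUG1*, a small inhibitor of ribonucleotide reductase that marks checkpoint activity, had 259.9, 261 and 223 RPKM in laser T15 libraries, against 10.9, 6.19 and 9.31 RPKM in control T15 and 7.52, 15.8 and 6.28 RPKM in control T0 libraries. The laser values were alike and the control groups overlapped (log2 fold change over control T0 4.62 ± 0.21, adjusted p = 8.5e-13). The ribonucleotide reductase subunit genes *RNR2*, *RNR3* and *RNR4* rose by 1.36, 1.44 and 1.42 over control T0 and fell by 1.05, 2.0 and 1.21 in control T15. *RNR3* had 34.0, 34.4 and 34.4 RPKM in laser T15 libraries, against 2.07, 2.58 and 2.12 RPKM in control T15 and 8.20, 15.6 and 13.4 RPKM in control T0 libraries. The large subunit gene *RNR1* was called higher at 1.01 ± 0.18, and not called at 0.97 and 0.90 without replicate 1 or replicate 3. *MAG1*, a DNA glycosylase of base excision repair, had 107, 99.9 and 118 RPKM in laser T15 libraries, against 25.7, 18.0 and 22.7 RPKM in control T15 and 27.5, 33.4 and 38.8 RPKM in control T0 libraries and a log2 fold change of 1.69 ± 0.18. The recombination gene *RAD54* and the photolyase gene *PHR1* were near the start state while control cells fell. *RAD54* and *PHR1* differed from control T0 by 0.13 (interval -0.31 to 0.56) and -0.07 (interval -0.62 to 0.47).

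In sulfur and amino acid metabolism, genes that control cells lowered were among those that stood above control T0 in laser T15. Of 40 sulfur and methionine genes 8 were called higher than control T0 and none lower (median 0.34), against 3.54% and 4.32% of all genes tested. At laser T0 3 of 39 were called higher and none lower, where 0.442% and 0.102% of all genes tested were. The median over control T0 was 0.36 there, so by its median the list stood about as high as at 15 min. In control T15 against control T0 none of 39 was higher and 7 were lower, where 2.3% and 12.9% of all genes tested were. *MET17*, the sulfhydrylase gene noted above, had 350.5, 392 and 482 RPKM in laser T15 libraries, against 31.2, 36.0 and 47.8 RPKM in control T15 and 76.3, 105 and 96.0 RPKM in control T0 libraries (log2 fold change over control T0 2.13 ± 0.16, adjusted p = 3.7e-09), and its gene model overlaps *YLR302C*. The Cbf1 letters stood in the window of 24 of the 40 genes (60%), against 5.8% of all genes with a window. *ARG3*, the arginine synthesis enzyme ornithine carbamoyltransferase, had 38.1, 45.7 and 51.7 RPKM in laser T15 libraries, against 0.22, 3.78 and 3.79 RPKM in control T15 and 5.36, 9.64 and 9.46 RPKM in control T0 libraries. Its laser values lay above both control groups, with 2.36 ± 0.24 for laser T15 and -1.55 ± 0.48 for control T15 over control T0. *ARO10* and *ARO9*, which break down aromatic amino acids, were higher by 2.19 and 1.68 in laser T15 and changed by -1.02 and -1.01 in control T15. In all, 21 of 203 genes called higher in laser T15 were called lower in control T15 against control T0, 24 were called higher in both and 158 were not called in control T15.

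**Figure D2:**
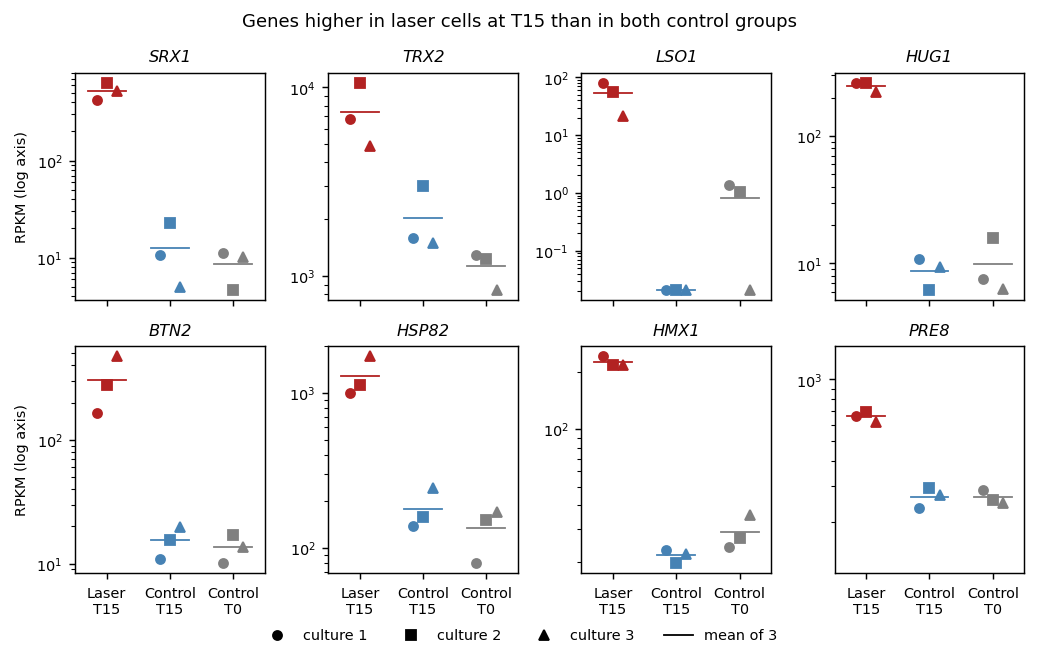
RPKM per library (log axis) of 8 genes that were higher in laser T15 than in both control groups, with 1 symbol per culture and a bar at the mean of 3 libraries. In each panel the 3 laser T15 values lie above the 6 control values, and *LSO1* is at 0.021 RPKM, the value of a gene without reads, in 4 control libraries.

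Among stress and protease genes, laser cells held some at the starting level and others below it. Of 68 Msn2 and Msn4 target genes, 52 were called lower and none higher in control T15 against control T0 (median -1.65). The shares over all genes tested were 12.9% lower and 2.3% higher. The near-start definition was met by 18 of the 68, and by 4.24% of all genes tested in the 3 fits. In laser T15 against control T0 21 were called lower and 2 higher (median -0.40), where 4.32% and 3.54% of all genes tested were. The median by culture was 0.01, -0.68 and -0.69, so culture 1, whose control T0 library stood apart, differed from the other 2. Without replicate 1 the counts were 28 lower and 2 higher (median -0.66), and without the pairing of cultures 13 lower and 2 higher. After rescaling 46 of the 68 were called lower in control T15 against control T0. Laser T15 was then called higher than control T15 in 32, and in 45 before rescaling. *TMA10*, a small protein found with ribosomes, had 268, 534 and 451 RPKM in laser T15 libraries, against 5.17, 13.5 and 23.1 RPKM in control T15 and 227, 853 and 792 RPKM in control T0 libraries. Control cells had lost nearly all of it, a log2 fold change of -5.38 ± 0.22, while laser T15 values overlapped those of control T0 (-0.41 ± 0.19, interval -0.81 to -0.02). *PRB1*, the vacuolar protease B, had 502, 547 and 659 RPKM in laser T15 libraries, against 68.6, 81.0 and 118 RPKM in control T15 and 242, 428 and 516 RPKM in control T0 libraries, and its interval against control T0 was 0.22 to 0.96. *TPS1*, which makes trehalose 6-phosphate, had 391, 494 and 526 RPKM in laser T15 libraries, against 127, 152 and 232 RPKM in control T15 and 281, 564 and 698 RPKM in control T0 libraries. Laser and start values overlapped (interval -0.42 to 0.34), and the related *TSL1* had an interval of -0.59 to 0.36. *TFS1*, an inhibitor of vacuolar carboxypeptidase Y, differed by -0.02 from control T0 and by 1.37 from control T15.

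Autophagy and vacuolar genes held calls in both directions against the start state in laser cells. Of 30 tested, 12 were called lower in control T15 against control T0 and none higher, where 12.9% of all genes tested were lower. In laser T15 against control T0 3 were higher, *ATG1*, *ATG5* and *ATG41*, and 1 lower, *PAI3* (median 0.10, and -0.07 without replicate 1). Over all genes tested 3.54% were higher and 4.32% lower. Without replicate 3 *PAI3* was at -0.89 and not called. Of the 30, 9 were near the start state, against 4.24% of all genes tested in the 3 fits. After rescaling 7 of the 30 were called lower in control T15 against control T0. Laser T15 was then called higher than control T15 in 9, and in 15 before rescaling. The letters AGGGG stood in the window of 146 of 235 genes of the near-start set that control cells lowered (62.1%), in 99 of 166 genes called lower than control T0 in laser T15 and in control T15 (59.6%), in 51 of 140 genes above both control groups (36.4%) and in 29.5% of all genes with a window.

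Of 137 ribosomal protein genes, 38 were called against the start state in control cells and 1 in laser cells. Over 137 genes the median log2 fold change of laser T15 over control T0 was 0.00, with 70 genes above 0 and 133 intervals within 2-fold. None was called lower and 1, *RPS28B*, higher. That call was lost without replicate 2, without the pairing of cultures (adjusted p of limma 0.251) and without the filter on low values. In control T15 against control T0 the median was 0.86, with 38 called higher and none lower. In laser T15 against control T15 10 were called lower (median -0.85), 119 after rescaling, and 39, 13 and 2 without replicate 1, 2 or 3. Of the 137, 6 met the near-start definition. *RPL27A*, a protein of the large subunit, had 5612, 6621 and 2223 RPKM in laser T15 libraries, against 9925, 12330.0 and 5529 RPKM in control T15 and 6682, 3471 and 2275 RPKM in control T0 libraries. The laser T15 values overlapped those of control T0, whose culture 1 was the highest. The list medians of laser T15 over control T0 by culture were -0.32, 0.45 and -0.11. The count in control T15 depended on the culture left out, with 93, 5 and 7 called higher without replicate 1, 2 or 3, and 100 called higher after rescaling. Of 117 ribosome biogenesis genes 1, *UTP20*, was called higher than control T0 and none lower in laser T15 (median 0.03, and -0.11 without replicate 3). The call of *UTP20* was lost without replicate 3, with a pseudocount of 5 and without the filter on low values. In control T15 12 of the 117 were called higher (median 0.60). Other genes near the start state that control cells had raised were *HO*, the mating-type switching endonuclease, and *PHO3*, an acid phosphatase. *PHO3* had 94.5, 70.6 and 94.3 RPKM in laser T15 libraries, against 281, 222 and 388 RPKM in control T15 and 129.7, 98.4 and 103 RPKM in control T0 libraries.

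**Figure D3:**
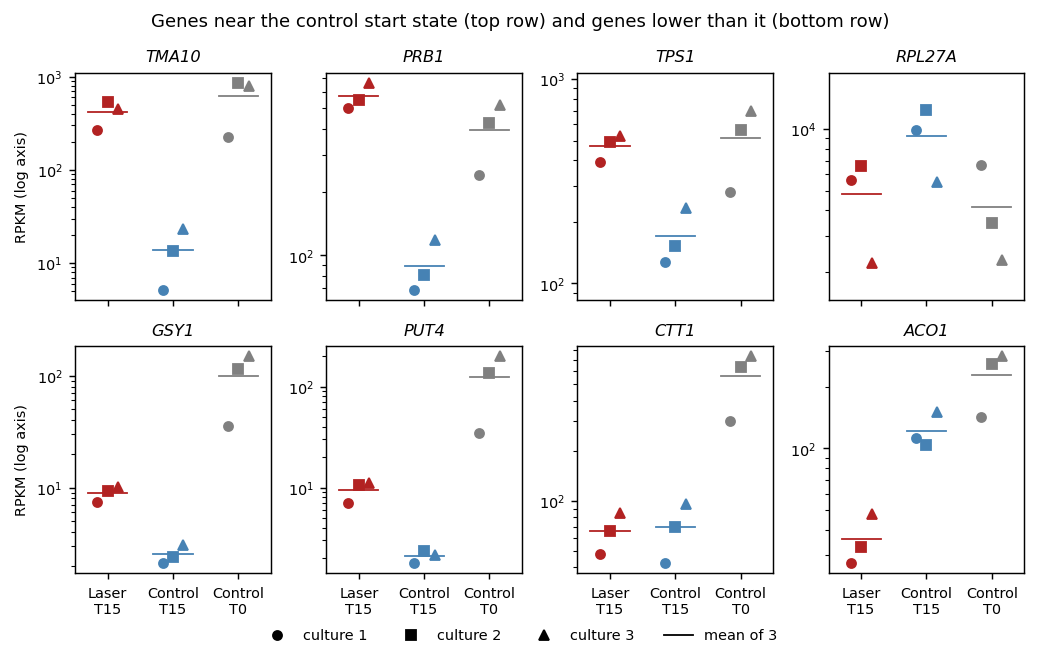
RPKM per library (log axis) of 8 genes, with 1 symbol per culture and a bar at the mean of 3 libraries. In the top row laser T15 lies close to control T0 while control T15 is lower (*TMA10*, *PRB1*, *TPS1*) or higher (*RPL27A*). In the bottom row laser T15 is below control T0, with control T15 lower still (*GSY1*, *PUT4*), level with laser T15 (*CTT1*) or between the 2 (*ACO1*).

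Many genes fell in laser cells as they did in control cells. Of 250 genes called lower in laser T15 than in control T0, 178 (71.2%) were also called lower in control T15 against control T0, and 190 (76%) were not called between laser T15 and control T15. Of 39 oxidative phosphorylation genes 17 were called lower in laser T15 (median -0.94) and 20 in control T15 (median -1.01), each against control T0 and none higher, with 14 and 11 after rescaling. The shares of all genes tested called lower were 4.32% in laser T15 and 12.9% in control T15. *SDH1*, the flavoprotein subunit of succinate dehydrogenase, had 20.8, 28.2 and 39.9 RPKM in laser T15 libraries, against 16.4, 18.3 and 29.1 RPKM in control T15 and 92.7, 182 and 222 RPKM in control T0 libraries and a log2 fold change of -2.40 ± 0.18 in laser T15. *COX26*, a small protein of the respiratory chain complexes, had 14.9, 29.2 and 11.99 RPKM in laser T15 libraries, against 19.0, 28.7 and 16.8 RPKM in control T15 and 281, 433 and 319 RPKM in control T0 libraries. The fall was about the same in both portions, -4.20 ± 0.19 in laser T15 and -3.95 ± 0.21 in control T15. Hexose transporters of low glucose fell in the same way. *HXT4* had 5.33, 7.44 and 14.6 RPKM in laser T15 libraries, against 4.94, 6.29 and 10.4 RPKM in control T15 and 105, 290.3 and 375 RPKM in control T0 libraries (log2 fold change of laser T15 over control T0 -4.59 ± 0.21, adjusted p = 8.5e-13), and the near-identical *HXT6* and *HXT7*, whose reads may be exchanged by the mapping, changed by -2.89 and -2.38. *HXT1*, the transporter of high glucose, rose in both, with 160.1, 154 and 258 RPKM in laser T15 libraries, against 257, 210.3 and 387 RPKM in control T15 and 39.5, 47.2 and 76.5 RPKM in control T0 libraries. *CTT1*, the cytosolic catalase and a target of Msn2 and Msn4, had 48.0, 65.8 and 84.8 RPKM in laser T15 libraries, against 42.5, 70.0 and 96.4 RPKM in control T15 and 299.7, 637 and 736 RPKM in control T0 libraries. Its level in laser cells overlapped that of control T15, with a difference of -0.03 ± 0.11 (interval -0.29 to 0.22), unlike the near-start genes of the same list. *ADE17*, an enzyme of purine synthesis, and *PHD1*, a regulator of filamentous growth, changed by -4.18 and -3.69 over control T0 in laser T15 and by -4.21 and -4.45 in control T15.

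A set of 47 genes fell in laser cells, but less far than in control cells. *GSY1*, a glycogen synthase, had 7.49, 9.34 and 10.1 RPKM in laser T15 libraries, against 2.11, 2.41 and 3.06 RPKM in control T15 and 35.3, 115 and 149 RPKM in control T0 libraries. The 3 groups did not overlap, with -3.11 ± 0.27 for laser T15 and -4.61 ± 0.30 for control T15 over control T0. *PUT4*, a proline permease, had 6.99, 10.6 and 11.1 RPKM in laser T15 libraries, against 1.79, 2.38 and 2.17 RPKM in control T15 and 34.9, 135 and 199.9 RPKM in control T0 libraries, and *GAP1*, the general amino acid permease, changed by -2.02 in laser T15 and -3.26 in control T15. *NCE103*, carbonic anhydrase, had 845, 1131 and 1369 RPKM in laser T15 libraries, against 172, 196 and 179 RPKM in control T15 and 3866, 5034 and 4951 RPKM in control T0 libraries. *GPD1*, which makes glycerol 3-phosphate, and the hexokinase gene *HXK1* each changed by -1.97 in laser T15, and by -3.39 and -3.13 in control T15. Of 20 trehalose and glycogen genes 9 were called lower than control T0 in laser T15 and 17 in control T15, none higher (medians -0.79 and -2.07). Among all genes tested 4.32% and 12.9% were called lower. The laser T15 count was 10, 5 and 4 without replicate 1, 2 or 3, and 2 without the pairing of cultures.

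Few genes lay below both control groups. *ACO1*, aconitase, an iron-sulfur enzyme of the citric acid cycle, had 27.5, 32.9 and 47.8 RPKM in laser T15 libraries, against 112, 104 and 150.5 RPKM in control T15 and 142, 257 and 281 RPKM in control T0 libraries. Laser values were lowest and did not overlap either control group, with -2.60 ± 0.18 against control T0 and -1.75 ± 0.11 against control T15. *SUR2*, a sphingolipid hydroxylase, had 48.1, 33.9 and 31.5 RPKM in laser T15 libraries, against 100.4, 76.0 and 81.2 RPKM in control T15 and 130.4, 218 and 204 RPKM in control T0 libraries. *SCM4*, a mitochondrial outer membrane protein, was lower by -2.96 ± 0.24 and -1.29 ± 0.17 against control T0 and control T15. *SFG1*, a regulator of superficial growth, had 12.4, 11.3 and 13.3 RPKM in laser T15 libraries, against 38.9, 36.0 and 54.4 RPKM in control T15 and 41.5, 44.8 and 53.9 RPKM in control T0 libraries. *ERG11*, an enzyme of ergosterol synthesis, and *GLT1*, glutamate synthase, sat at the limit, with -1.03 ± 0.16 and -1.03 ± 0.24 against control T0. *ERG11* was at -0.998 after rescaling and at -0.93 without replicate 2, and *GLT1* was at -0.996 after rescaling and at -0.96 without replicate 1, where neither was called. The remaining members of the 13 were *FET4*, *IRC23*, *INA1*, the spliceosomal RNA gene snR14 and the tRNA genes tW[CCA]J, tL[UAA]B1 and *SUF2*. Without the pairing of cultures snR14, tL[UAA]B1 and *SUF2* were not called (adjusted p of limma 0.166, 0.0611 and 0.0514). The call of tL[UAA]B1 was also lost without replicate 1 (adjusted p of limma 0.0827) and, at -0.94, with a pseudocount of 5. That of *SUF2* was also lost without replicate 2, after rescaling, in 1 fit of 12 libraries and without a variance trend (adjusted p of limma 0.0772, 0.0527, 0.104 and 0.0507). The libraries were enriched for poly(A) RNA and tRNA genes have near-identical copies, so the levels of these short RNAs are uncertain. With that limit, 21 of 77 snoRNA and snRNA genes were called lower and none higher than control T0 in laser T15 (median -0.74), or 11 lower without the pairing of cultures, and 13 of 89 tRNA genes were called higher and 10 lower, or 1 and 2 without the pairing and 5 and 5 after rescaling. Without the filter on low values 1 snoRNA or snRNA gene was called lower, and no tRNA gene was called in either direction.

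Cell cycle genes held calls in both directions. Of 23 G1/S genes 2 were called higher than control T0, *RNR1* and the single-strand DNA binding protein gene *RFA1* (1.53 ± 0.20), and 3 lower, the cyclin genes *CLN1* and *PCL1* and the repressor gene *YOX1*. Of 18 G2/M genes 2 were called lower, the mitotic cyclin gene *CLB1* and the activator gene *NDD1*, and over all genes tested 7.86% were called. *CLB1* had 26.7, 27.5 and 26.5 RPKM in laser T15 libraries, against 46.7, 36.2 and 46.1 RPKM in control T15 and 157, 189.9 and 189 RPKM in control T0 libraries. *NDD1* was at -1.04 ± 0.23, and not called without replicate 2 or without the pairing of cultures. None of 10 histone genes was called, with a median of -0.67 and 6 of them lower at an unadjusted p under 0.05 in limma. Without replicate 2 the histone genes *HTA2*, *HTB2* and *HTZ1* were called lower, at -1.21, -1.05 and -1.01, and *HTB2* also without replicate 3. None of 70 mitochondrial ribosome genes, 38 translation factor genes, 21 tRNA synthetase genes or 20 mating genes was called in either direction. At an unadjusted p under 0.05 in limma, 1 mitochondrial ribosome gene was higher and 15 lower, 3 translation factor genes higher and 1 lower, no synthetase gene either way, and 3 mating genes higher and 2 lower. For the mitochondrial ribosome genes all 70 intervals lay within 2-fold of control T0.

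**Figure D4:**
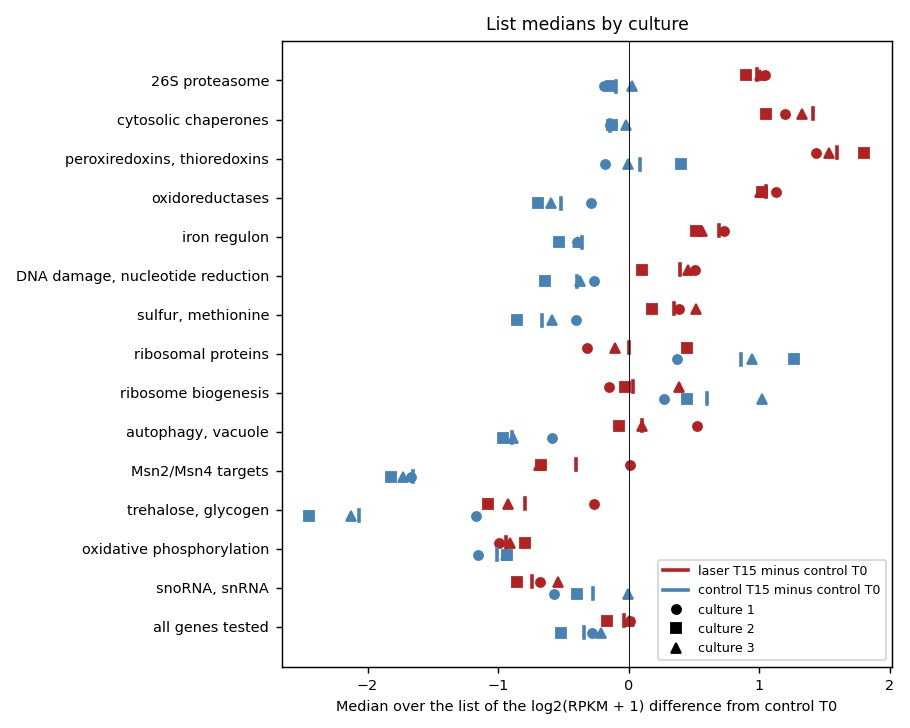
Median over each gene list of the log2(RPKM + 1) difference from control T0, for laser T15 (red) and control T15 (blue), with 1 symbol per culture and a bar at the median of the fitted log2 fold changes, which can lie outside the 3 culture medians. Both colours use the same control T0 libraries. Red symbols lie near 1 or above for the proteasome, chaperone, peroxide and oxidoreductase lists, near 0 for ribosomal proteins, and on the blue ones for oxidative phosphorylation.

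A small number of genes were already called when laser cells entered the medium. In laser T0 against control T0, 32 of 5884 genes (0.544%) were called, 26 (0.442%) higher and 6 (0.102%) lower. These counts moved to 1 and 0 without the pairing of cultures, where the 1 gene was *SRX1*, to 4 and 0 without a variance trend and to 0 and 0 without the filter on low values. Without replicate 1, 2 or 3 they were 24, 47 and 54 higher and 25, 6 and 21 lower. *SRX1* had 399, 228 and 199 RPKM in laser T0 libraries, a log2 fold change of 4.85 ± 0.22 over control T0, against 5.83 at 15 min. *ISU2*, an iron-sulfur cluster scaffold, had 625, 728 and 547 RPKM in laser T15 and 860.2, 476 and 450.1 RPKM in laser T0 libraries, against 178, 112 and 102 RPKM in control T0 libraries, so that its laser values overlapped between the 2 times. *GPX2* and *TRR1* were called higher at laser T0 by 2.73 and 1.14, *TRR1* not without replicate 1. Others were not called at this time. *HMX1* had 35.2, 32.1 and 38.6 RPKM in laser T0 libraries, a difference of 0.30 ± 0.15 from control T0 that was not called. None of the 33 proteasome genes was called at laser T0 (median 0.01), and of the 35 chaperone genes 1, *BTN2*, was, at 1.27 ± 0.21.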

How the data were processed

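RNA of BY4741 was sequenced by the authors from 3 cultures, each divided into a control and a laser portion, after poly(A) selection with a stranded kit. Reads were assembled by them against S288C in SeqMan NGen, and ArrayStar gave expression values. The deposited RPKM values of each gene and library, from the T0 and T15 tables, were analysed. RPKM is scaled within each library, so the 2 tables were joined by gene name. How the strand of reads was used is not given in the sources used here. Columns with the authors' group means, fold changes, t and p-values were not used, nor were the T30 and T60 tables. Depth was inferred from the steps between low RPKM values. Under the inferred depth 93.8% to 96.3% of them were whole reads to within 0.08 (16% by chance). Intervals from such reads cover counting error only. The 12 libraries of laser and control cells at T0 and T15 held 44254500 reads.

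Each comparison was a limma 3.58.1 fit (R 4.3.3) of its own 6 libraries on log2(RPKM + 1), with a variance trend, the culture as a block and genes that reached an RPKM of 1 in 3 or more libraries. Adjusted p-values follow Benjamini-Hochberg over all genes tested. The study's methods give a common culture for libraries with the same number. Deviations of same-numbered laser T15 and control T0 libraries from their group means correlated at 0.387, -0.0421 and 0.511 across genes, which are not independent replicates. The highest correlation with a control T0 library of another number was -0.184, 0.319 and 0.161, so replicate 2 did not show the pairing. Control T15 replicate 2 did not show it either, at -0.0645 against 0.27. p-values rest on the spread between 3 cultures, with the variance of each gene drawn by limma toward a trend over all genes tested. How far it was drawn differed between fits. In control T15 against control T0 the variance was taken nearly from the trend alone. A gene's own spread between cultures thus counted less there than in laser T15 against control T0. Adjusted p-values, counts of calls and the near-start class, which draws on all 3 fits, therefore rest on unlike errors. The fit was tested on simulated data. Names were matched to R64 for 6190 of 6427 genes, and 2 names had been turned into dates. Motifs were searched on both strands in 400 bases from 500 to 101 before the start codon, as a description with no test. Several gene lists gather genes linked to these factors, and called and uncalled members were not separated. The motif shares of the lists therefore give no measure of the laser response. Tables were made with pandas 2.3.3 and NumPy 2.4.6 in Python 3.11.15, and plots with Matplotlib 3.10.9.

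Members and gene lists were chosen with earlier results of these data known. Genes were named by a rule: the 15 called higher and the 15 called lower genes with the largest changes whose groups do not overlap, up to 4 per list with the smallest p, the 10 largest of each class in each direction, and the strain and mating type markers. Others were named for their role after their values were seen, and not every gene under the rule is described. Alternatives were other pseudocounts and filters, no block, median-ratio rescaling, 12 libraries in 1 fit, no variance trend and leaving out each culture.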

Additional observations from a re-analysis of the deposited data

Results flagged for a closer look

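The change of laser cells from T0 to T15 differed from that of control cells over the same time in 1 limma fit of the 12 libraries with culture as a block (interaction term, adjusted over 6048 genes). In 547 genes the log2 change of laser cells minus that of control cells was positive by at least 2-fold, which takes in genes that fell less in laser cells, and in 35 it was negative. Of the 15 named genes highest over control T0, 8 passed. The difference of the 2 log2 changes was 5.74 for *LSO1*, 3.11 for *HUG1*, 3.03 for *YKL071W*, 3.01 for *HMX1*, 2.85 for *BTN2*, 2.02 for *FIT2*, 1.88 for *HSP82* and 1.60 for *OYE3*. *SRX1*, which was high at laser T0, did not pass this test. Of the 15 named genes lowest against control T0, 4 passed. *PUT4* (1.53), *GSY1* (1.44) and *PHD1* (1.06) fell less in laser than in control cells, and *SCM4* (-1.41) fell further. Libraries of laser T0 enter this test and not the comparison with control T0, while those of laser T15 and control T0 enter both. The named genes were picked by their values in that comparison, so the numbers that passed give no rate for other genes.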

How the results depend on the processing

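No named gene called against control T0 changed sign there under the alternatives run. Some list medians close to 0 did. Against control T0 the laser T15 median of ribosomal protein genes was -0.22 without replicate 2, that of ribosome biogenesis genes -0.11 without replicate 3 and that of autophagy and vacuolar genes -0.07 without replicate 1, and the control T15 median of proteasome genes was 0.27 after rescaling. For 247 named genes, 2523 of 2698 values against control T0 kept their side of the threshold, 157 no longer passed and 18 newly passed. Of those that no longer passed, 96 came from the fit without a filter on low values. The cause of the changes below was not tested. Without the filter, 59 genes were higher and 45 lower in laser T15 than in control T0, 2 and 100 in control T15 against control T0, and 0 and 0 in laser T0 against control T0 (407 and 397 at an unadjusted p under 0.05 in limma). That fit gave 50 genes above both control groups, 5 below both, 19 near the start state where control cells fell and 0 where they rose. A fit without the replicate block gave 173 genes higher in laser T15 than in control T0 and 173 lower. The unpaired fit also gave 85 genes higher in control T15 than in control T0, 1 higher and 0 lower in laser T0 than in control T0 (170 and 102 unadjusted), and 2 genes near the start state that control cells raised. After rescaling, control T15 against control T0 gave 345 higher and 375 lower genes, laser T15 against control T15 394 higher and 306 lower, and the classes held 23 genes below both, 97 near the start state where control cells fell and 134 where they rose. A pseudocount of 5 gave 38 genes lower in laser T15 than in control T15 and 8 below both. Without a variance trend, laser T0 gave 4 higher and 0 lower genes (365 and 345 unadjusted).

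Leaving out 1 culture at a time gave 197 to 249 genes higher and 218 to 341 lower in laser T15 than in control T0, the highest number of lower genes without replicate 1. The ranges were 35 to 277 higher and 467 to 936 lower in control T15 against control T0, and 43 to 124 lower in laser T15 against control T15. For laser T0 against control T0 they were 24 to 54 higher and 6 to 25 lower. Near the start state lay 154 to 235 genes that control cells lowered and 1 to 41 that they raised, with 41 without replicate 1, 1 without replicate 2 and 2 without replicate 3. Genes without reads in either group of a comparison, among the 436 to 509 without reads in a library, allow no difference to be detected at this depth.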
